A study of Mus musculus with 20 samples.

Results

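The bone marrow niche factors described here are 10 genes, Cxcl12, Kitl, Il7, Angpt1, Csf1, Lepr, Jag1, Foxc1, Ebf3 and Grem1, taken by gene symbol from the 55486 genes counted in mouse bone marrow and kidney. All 10 had a row in both count tables, 10 passed the filter on low counts in bone marrow, and 9 passed it in kidney. RNA was sequenced from bone marrow and kidney of C57BL/6 mice, 10 weeks old at the start, with no engineered allele named. One group per tissue received 10 mg/kg oxaliplatin in 5% dextrose by intraperitoneal injection over 8 weeks, and the other received 5% dextrose alone. Oxaliplatin is a platinum compound used against cancer, which forms adducts with DNA. There were 5 libraries per tissue and treatment, 20 in all, labelled as biological replicates. According to the methods, both male and female mice were used and marrow was spun out of the femur and tibia when 6 days had passed since treatment ended. Libraries held 30660153 to 41140527 counts in marrow and 24393007 to 30925430 in kidney. All 20 carried Y-linked RNA (Ddx3y at 23.0 CPM or more), with Xist at 2.88 CPM or less. None of the 20 thus reads as female, although the methods name both sexes.

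Blood-forming stem cells in the marrow depend on a small population of mesenchymal cells that lie along the sinusoids and are marked by the leptin receptor and by very high Cxcl12. These cells and the endothelium next to them secrete Cxcl12, stem cell factor (encoded by Kitl), interleukin 7 and other ligands, which act through receptors on the blood cells. The transcription factors Foxc1 and Ebf3 keep these stromal cells in that state, and adipocytes and osteoblasts of the marrow descend from the same lineage. Whole marrow contains few such cells among many blood cells, so that in these libraries fewer cells of a type and less RNA per cell cannot be told apart.

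Oxaliplatin was followed by higher RNA of 5 of the 10 niche factors in bone marrow, namely Il7 (3.67-fold), Kitl (2.31-fold), Foxc1 (2.19-fold), Angpt1 (1.91-fold) and Csf1 (1.52-fold), and by lower RNA of 0. These calls required an adjusted p under 0.05 in edgeR's two-sided quasi-likelihood test and a change beyond 1.5-fold, a rule that called 23.3% of the 22363 genes tested in marrow, 11.6% higher and 11.8% lower. At an adjusted p under 0.05 alone, which 33.1% of the tested genes met (16.3% higher and 16.8% lower), Cxcl12 and Jag1 were also higher and Lepr was lower. The median log2 fold change of the 10 genes was 0.57, against -0.04 over all tested genes. Ebf3 and Grem1 did not pass the test.

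The sequence upstream of the start of each gene is shown for the most abundant factor, Cxcl12, and for the 3 factors whose upstream sequence holds the core letters bound by the EBF family. The windows are the 250 bases before the RefSeq start in GRCm38.p6, written 5′ to 3′ on the strand of the gene, and capitals mark CCCNNGGG, where N is any base.
Cxcl12, chr6:117168285-117168534, plus strand: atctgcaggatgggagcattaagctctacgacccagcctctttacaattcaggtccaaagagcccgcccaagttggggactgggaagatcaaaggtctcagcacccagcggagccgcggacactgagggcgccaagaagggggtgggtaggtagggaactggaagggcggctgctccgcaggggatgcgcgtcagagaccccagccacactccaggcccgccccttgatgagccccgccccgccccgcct
Csf1, chr3:107760470-107760719, minus strand: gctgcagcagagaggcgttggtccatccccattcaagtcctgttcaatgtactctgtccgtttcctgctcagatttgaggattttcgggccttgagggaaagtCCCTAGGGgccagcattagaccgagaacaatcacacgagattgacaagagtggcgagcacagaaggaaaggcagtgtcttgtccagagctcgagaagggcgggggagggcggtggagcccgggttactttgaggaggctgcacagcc
Ebf3, chr7:137314446-137314695, minus strand: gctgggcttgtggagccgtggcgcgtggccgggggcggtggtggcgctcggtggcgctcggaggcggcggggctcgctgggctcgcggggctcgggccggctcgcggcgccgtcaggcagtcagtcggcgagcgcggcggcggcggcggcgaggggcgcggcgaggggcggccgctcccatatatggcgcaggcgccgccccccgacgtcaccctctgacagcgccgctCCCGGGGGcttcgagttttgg
Grem1, chr2:113758649-113758898, minus strand: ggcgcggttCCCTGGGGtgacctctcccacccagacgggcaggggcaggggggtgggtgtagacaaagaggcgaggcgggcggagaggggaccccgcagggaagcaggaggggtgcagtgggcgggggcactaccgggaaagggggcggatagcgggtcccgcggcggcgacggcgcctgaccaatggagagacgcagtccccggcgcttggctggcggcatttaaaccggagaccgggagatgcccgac
The match starts 147 bases before the start of Csf1, 21 before that of Ebf3 and 241 before that of Grem1. A promoter was matched for 8 of the 10 genes (9 windows, 2 of them for Lepr), and 3 of the 8 genes held CCCNNGGG on either strand, as did 11.8% of 32851 mouse promoter windows. The forkhead letters TGTTTAC, searched on both strands, were in 0 of the 8 genes and in 3.17% of all windows. Il7 and Angpt1 were not matched. These matches describe letters only.

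Cxcl12 (ENSMUSG00000061353, chr6:117168535-117181367, plus strand, GRCm38) encodes the chemokine that holds stem cells and B cell precursors in the marrow through Cxcr4. It reached 1275, 1217, 1135, 1426 and 1104 CPM (counts relative to the TMM-scaled library size) in the dextrose mice and 2239, 1827, 1433, 1819.6 and 1337 CPM in the oxaliplatin mice. The groups overlapped, because oxaliplatin mouse 5 lay below dextrose mouse 4. The fold change was 1.41 (log2 0.49 ± 0.15, SE; adjusted p = 0.0217 in edgeR), under the 1.5-fold threshold. Alternatives other than leaving out 1 mouse gave a log2 fold change of 0.47 to 0.64, the upper end past that threshold. The edgeR test was lost when any 1 of 4 mice was left out (dextrose 2, 3 or 5, or oxaliplatin 1), with an adjusted p of at most 0.0601.

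Kitl (ENSMUSG00000019966, chr10:100015630-100100416, plus strand) encodes stem cell factor, the ligand of Kit. Its level was 54.6, 49.7, 41.8, 59.7 and 47.3 CPM with dextrose and 149, 127, 93.7, 106 and 109 CPM with oxaliplatin. All 5 oxaliplatin mice lay above all 5 dextrose mice, as did 11.4% of tested genes, and 24.9% did not overlap in either direction. The log2 fold change was 1.21 ± 0.13 (SE; adjusted p = 1.84e-05 in edgeR).

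Il7 (ENSMUSG00000040329, chr3:7569994-7613760, minus strand) encodes the cytokine that B cell precursors need, and it was the least abundant of the 10 factors in marrow. It was counted 37 to 116 times per library with dextrose, at 2.12, 3.11, 1.61, 3.31 and 1.20 CPM. With oxaliplatin it was counted 149 to 561 times, at 8.81, 8.09, 8.32, 12.5 and 4.02 CPM. Every oxaliplatin mouse was above every dextrose mouse, with oxaliplatin mouse 5 nearest to them. The log2 fold change of 1.87 ± 0.33 (SE; adjusted p = 6.46e-04 in edgeR) was the largest of the 10 factors.

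Angpt1 (ENSMUSG00000022309, chr15:42424723-42676977, minus strand) encodes angiopoietin 1, which stabilizes vessels through the receptor Tie2, encoded by Tek. It stood at 27.4, 24.8, 29.0, 36.7 and 24.8 CPM with dextrose and 63.9, 51.9, 59.2, 50.5 and 47.6 CPM with oxaliplatin. The groups did not overlap, and the log2 fold change was 0.94 ± 0.13 (SE; adjusted p = 8.26e-05 in edgeR).

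Csf1 (ENSMUSG00000014599, chr3:107741048-107760469, minus strand) encodes macrophage colony-stimulating factor. It was even among the dextrose mice, at 46.2, 45.9, 48.0, 53.2 and 55.4 CPM, and spread widely among the oxaliplatin mice, at 106, 65.9, 46.8, 89.9 and 68.8 CPM. Oxaliplatin mouse 3 fell within the dextrose range. The log2 fold change was 0.60 ± 0.18 (SE; adjusted p = 0.0191 in edgeR), only just past 1.5-fold, and it was 0.55 with the replicate number as a block, under that threshold.

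**Figure D1:**
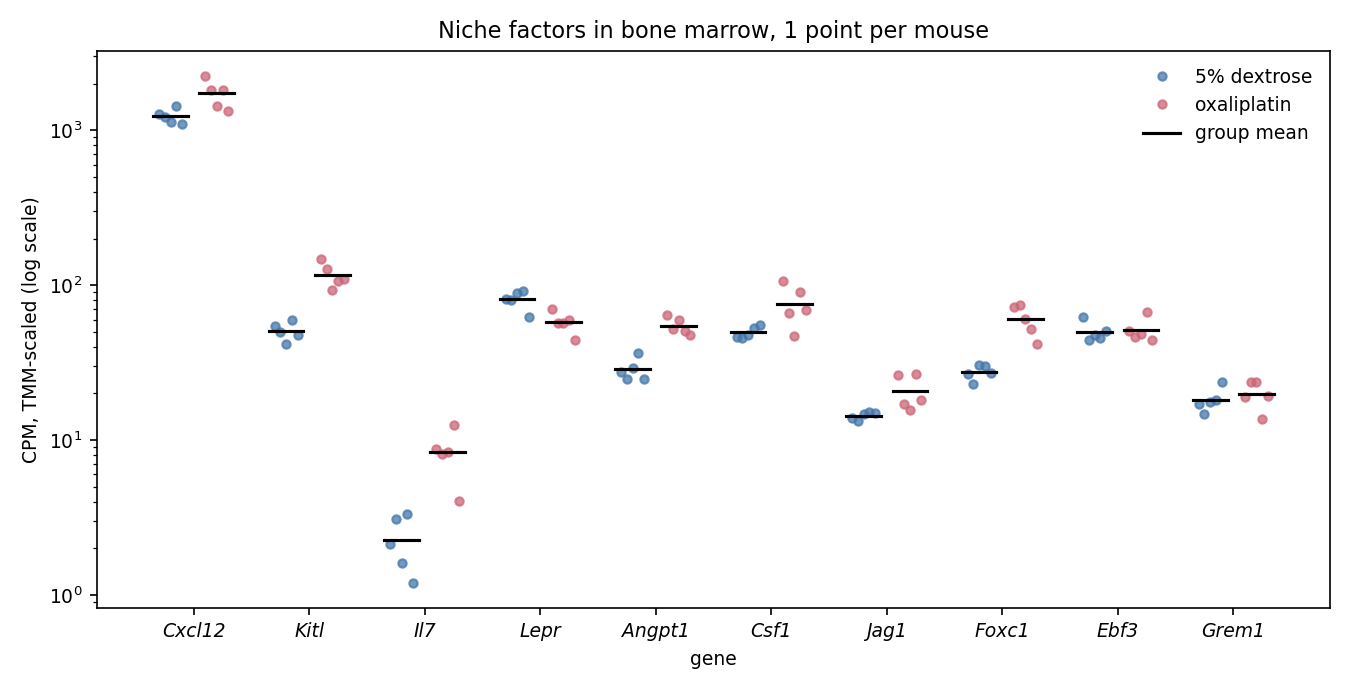
CPM of the 10 niche factors in bone marrow on a log axis, 1 point per mouse in replicate order, with the mean of each group of 5 as a line. Kitl, Il7, Angpt1, Jag1 and Foxc1 do not overlap between the groups, and Cxcl12 lies far above the other 9.

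Lepr (ENSMUSG00000057722, chr4:101717404-101815352, plus strand) is the leptin receptor and the usual mark of the stromal cells themselves. It had a lower level in oxaliplatin mice, while most of the secreted factors of the list had a higher one. Whole-marrow libraries do not show which cells made the RNA of those factors. It measured 81.3, 80.0, 89.1, 91.4 and 62.7 CPM with dextrose and 70.6, 56.9, 57.2, 59.7 and 44.2 CPM with oxaliplatin. The groups overlapped only through dextrose mouse 5, which was below oxaliplatin mouse 1. The log2 fold change was -0.49 ± 0.13 (SE; adjusted p = 0.0108 in edgeR), short of 1.5-fold. It was -0.33 (adjusted p = 0.0503) when libraries were scaled by their total alone and -0.35 (adjusted p = 0.0844) with the level of Y-linked genes as a covariate.

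Jag1 (ENSMUSG00000027276, chr2:137081456-137116644, minus strand) encodes a ligand of the Notch receptors. Its 13.9, 13.3, 14.8, 15.1 and 15.0 CPM with dextrose and 26.2, 17.0, 15.7, 26.6 and 18.2 CPM with oxaliplatin did not overlap, although oxaliplatin mouse 3 was close to the dextrose mice. The log2 fold change of 0.53 ± 0.15 (SE; adjusted p = 0.0185 in edgeR) was under the 1.5-fold threshold, and the adjusted p was 0.0502 without oxaliplatin mouse 4. Alternatives other than leaving out 1 mouse gave 0.49 to 0.68, the upper end past that threshold.

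The 2 transcription factors differed from each other. Foxc1 (ENSMUSG00000050295, chr13:31806633-31812476, plus strand), a forkhead factor of the niche stroma, measured 26.6, 22.9, 30.6, 30.2 and 27.1 CPM with dextrose and 72.0, 74.9, 60.3, 52.0 and 41.5 CPM with oxaliplatin. Its groups did not overlap, with a log2 fold change of 1.13 ± 0.15 (SE; adjusted p = 9.49e-05 in edgeR). Ebf3 (ENSMUSG00000010476, chr7:137193673-137314445, minus strand), a member of the early B cell factor family, gave 62.1, 44.3, 47.9, 45.4 and 50.9 CPM against 50.6, 46.2, 48.7, 67.1 and 44.4 CPM. Those ranges lay nearly on top of each other, with a log2 fold change of 0.04 (95% confidence interval -0.24 to 0.31; adjusted p = 0.856 in edgeR).

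Grem1 (ENSMUSG00000074934, chr2:113746164-113758646, minus strand) encodes an extracellular antagonist of bone morphogenetic proteins. It measured 17.2, 14.8, 17.6, 18.1 and 23.7 CPM with dextrose and 18.9, 23.8, 23.5, 13.6 and 19.3 CPM with oxaliplatin. The ranges overlapped almost fully, and the log2 fold change was 0.12 (95% confidence interval -0.23 to 0.47; adjusted p = 0.625 in edgeR).

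The factors were next set against Cxcl12 in the same mouse, as the difference of log2 CPM, to show whether they kept their proportions. Kitl (by 0.73), Il7 (by 1.39), Angpt1 (by 0.47) and Foxc1 (by 0.63) were higher relative to Cxcl12 in all 5 oxaliplatin mice than in any dextrose mouse. Lepr was lower relative to Cxcl12 in all 5, with a difference of -0.96. Each of these 5 ratios had an adjusted p of 0.0143 over 9 ratios in the exact two-sided permutation test over all divisions of the 10 mice into groups of 5, whose smallest unadjusted p is 0.00794. Csf1 (0.08, adjusted p = 0.705) and Jag1 (0.02, adjusted p = 0.921) differed least in this ratio. Neither they nor Ebf3 (-0.44, adjusted p = 0.0833) and Grem1 (-0.36, adjusted p = 0.296) passed that exact test.

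**Figure D2:**
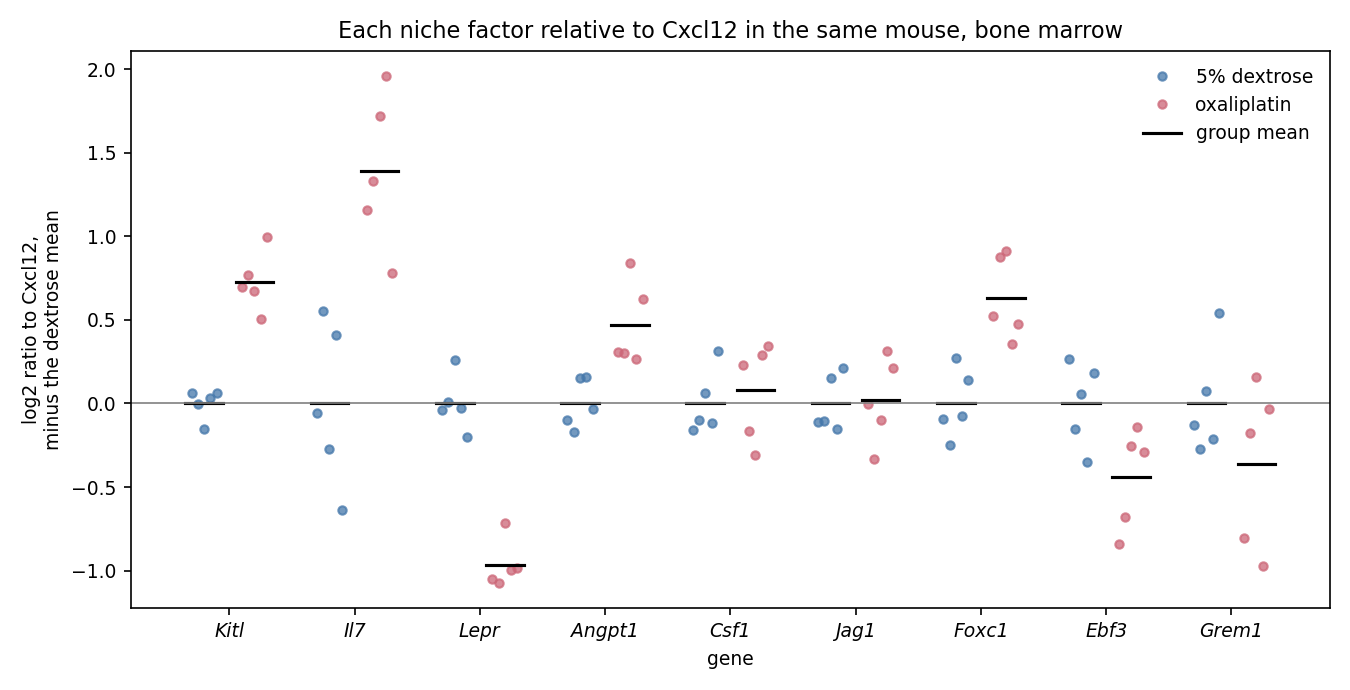
Log2 ratio of each niche factor to Cxcl12 in the same bone marrow library, less the mean of the dextrose mice, 1 point per mouse with group means as lines. The oxaliplatin mice lie above the dextrose mice for Kitl, Il7, Angpt1 and Foxc1 and below them for Lepr.

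Markers of several other cell types moved with the treatment in the same libraries, where 23.3% of all tested genes were called. Of 11 tested mesenchymal stroma markers, none of them a niche factor of the 10, 5 were called higher and 0 lower. Those 5, named after their values were seen, were Nes (1.59), Cspg4 (1.84), Igfbp4 (1.15), Gas6 (1.49) and Serping1 (0.99 on the log2 scale). The summed level of the list ranged from 1316 to 1933 CPM with dextrose and from 1892 to 2880 CPM with oxaliplatin, so that the groups overlapped. Pdgfra, the platelet-derived growth factor receptor of mesenchymal cells, differed by 0.55 (adjusted p = 0.00288 in edgeR), and Vcam1, the adhesion molecule of niche stroma, by 0.10 (adjusted p = 0.727). Against the mean of these 11 markers in the same mouse, Lepr (-1.24) and Ebf3 (-0.72) were lower after oxaliplatin, each with an adjusted p of 0.0397 in the exact permutation test over 10 factors. Il7 (1.11, adjusted p = 0.0529) and the other 7 factors did not pass it. With 1 mouse left out Lepr stayed between -1.30 and -1.17 and Ebf3 between -0.80 and -0.66. Neither passed the exact test without dextrose mouse 1 or 5 or without oxaliplatin mouse 3, with an adjusted p of at most 0.0794. For both factors the groups still did not overlap in those fits, where the exact p can take few values. With the median of the markers in place of their mean Ebf3 was -0.35 (adjusted p = 0.0529).

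All 9 adipocyte markers were called higher, and their sum went from between 187 and 281 CPM to between 994 and 3775 CPM. The 11 endothelial markers included 5 called higher and 0 lower, with sums of 548 to 667 CPM and 744 to 1156 CPM. Against the endothelial mean, Kitl (0.57), Il7 (1.23), Lepr (-1.12) and Ebf3 (-0.60) differed, each with an adjusted p of 0.0397 in the exact permutation test. Of 8 osteoblast markers, Ibsp (-1.86) and Runx2 (-0.61), both named after their values were seen, were called lower and 0 higher. That is 25% of the list, near the 23.3% called over all genes tested in marrow. The osteoblast sums overlapped, at 383 to 760 CPM and 232 to 724 CPM. No gene of these 4 lists was at 0 in every marrow library. Their part in the values of the niche factors was not tested.

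Of 8 skeletal muscle markers 5 were called higher and 0 lower, against 23.3% of all genes tested in marrow. Their median log2 fold change was 3.04. Their sum varied from mouse to mouse, from 9.75 to 110.03 CPM with dextrose and from 44.6 to 821 CPM with oxaliplatin, so that the groups overlapped, and its part in the niche factors was not tested. The highest sum belonged to oxaliplatin mouse 3, which also had the lowest Kitl, Csf1 and Jag1 of its group. With the highest library of each group left out, 6 of the 10 factors were called higher, Jag1 being added with a log2 fold change of 0.62.

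**Figure D3:**
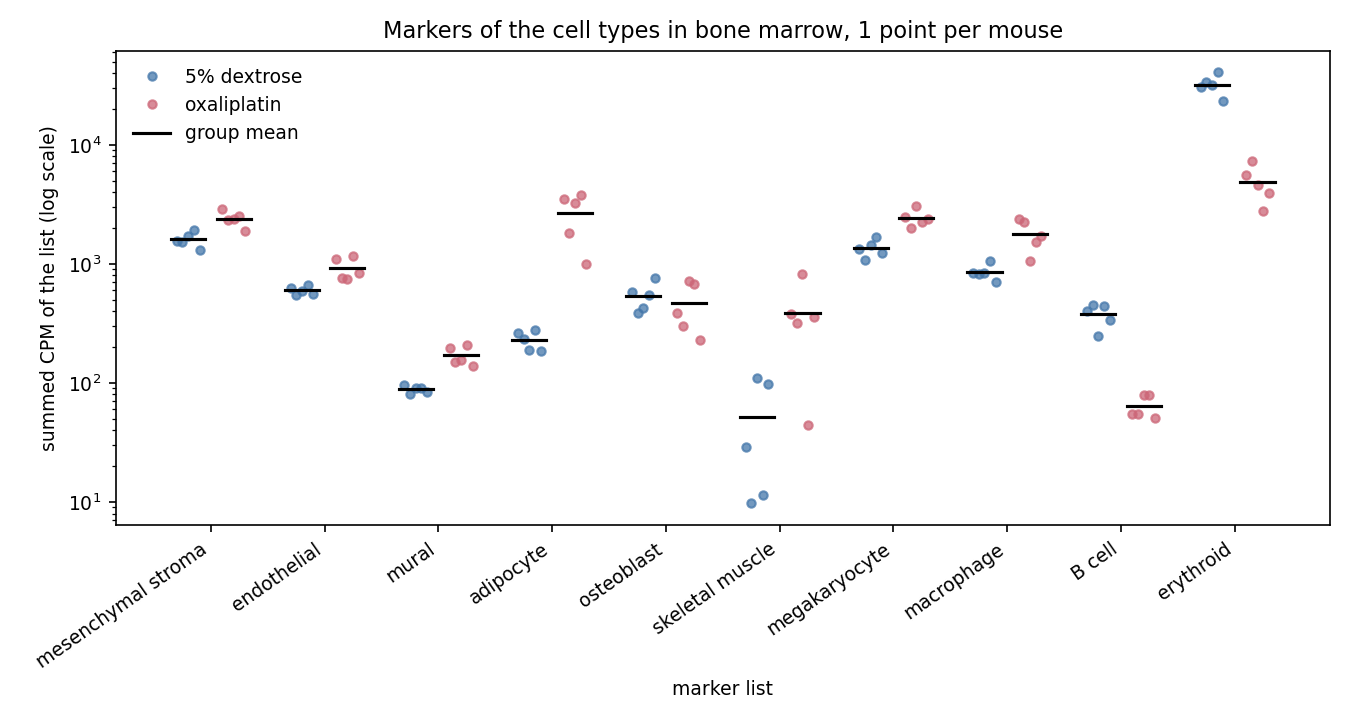
Summed CPM of marker lists in bone marrow on a log axis, 1 point per mouse in replicate order, with group means as lines. The endothelial, mural, adipocyte and megakaryocyte lists are higher with oxaliplatin, and the B cell and erythroid lists are lower. The stroma and macrophage lists have higher means with oxaliplatin, but their groups overlap.

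The genes whose products bind these factors, mostly receptors but also leptin and bone morphogenetic proteins, did not follow one direction. Of 16 binding partners tested in marrow, 5 were called higher and 2 lower, against 23.3% of all genes called, and their median log2 fold change was 0.02. Cxcr4, the receptor of Cxcl12, ranged from 238 to 302 CPM with dextrose and from 92.2 to 199.5 CPM with oxaliplatin, so that the groups did not overlap. Its log2 fold change was -0.95 ± 0.18 (SE; adjusted p = 0.00139 in edgeR). The scavenger receptor Ackr3 was scarce, at 0.291 to 0.823 CPM and 0.728 to 2.23 CPM, and differed by 1.01 (adjusted p = 0.0535).

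Il7r, the receptor chain of interleukin 7, fell from 23.5 to 40.7 CPM with dextrose to 7.13 to 12.4 CPM with oxaliplatin. Its log2 fold change of -1.62 ± 0.18 (SE; adjusted p = 1.71e-05 in edgeR) was opposite to that of its ligand. Il2rg, the chain it shares with other interleukin receptors, differed by -0.05 (adjusted p = 0.805). The 6 B cell markers moved with Il7r, from sums of 247 to 449 CPM to sums of 50.5 to 79.8 CPM. Of them 5 were called lower, against 11.8% of all genes tested in marrow. Their part in Il7r was not tested.

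Kit, the receptor of stem cell factor, gave 84.2 to 108.1 CPM with dextrose and 63.7 to 88.1 CPM with oxaliplatin. Its log2 fold change of -0.33 ± 0.11 (SE; adjusted p = 0.0323 in edgeR) was under 1.5-fold. The summed stem and progenitor markers (104 to 118 CPM against 105 to 125 CPM) overlapped, but the single genes moved in both directions. Of these 7 markers 2 were called higher and 0 lower, against 23.3% of all genes called. At an adjusted p under 0.05 alone in edgeR, 3 were higher and 1 was lower. Tek, the receptor of angiopoietin 1, differed by -0.39 (adjusted p = 0.0544) and its relative Tie1 rose by 0.70 (adjusted p = 0.00561). Csf1r, the receptor of Csf1, rose by 0.60 (adjusted p = 0.0136), as its ligand did. The 7 macrophage markers had 4 called higher and narrowly overlapping sums of 703 to 1049.7 CPM against 1048 to 2390 CPM. Their part in Csf1r was not tested.

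Lep, which encodes leptin, the adipocyte hormone that binds Lepr, was counted 0 to 5 times per library with dextrose and 88 to 782 times with oxaliplatin. It passed the filter on low counts only through the oxaliplatin group. Its place among the partners called higher rests on that, and no p-value is given. The dextrose counts lie around the floor of 3 counts per library, which covers counting error only. Leptin RNA was above that floor in every oxaliplatin library and was lowest in oxaliplatin mouse 5, which also had the lowest adipocyte sum.

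Among the Notch receptors, which bind Jag1, Notch4 of the endothelium rose by 0.90 (adjusted p = 0.00408 in edgeR). Notch1 (-0.21), Notch2 (-0.33) and Notch3 (0.39) did not pass the test. Of 5 genes known as Notch targets, Hey1 (0.60, adjusted p = 0.0403) and Nrarp (1.02, adjusted p = 0.0254) were called higher and 0 lower. Hes1, Hey2 and Heyl were not called, and over all genes tested in marrow the share called was 23.3%. Of the bone morphogenetic proteins that Grem1 family members bind, Bmp4 rose by 1.42 (adjusted p = 2.20e-04), and Bmp2 (-0.01) and Bmp7 (0.04) did not pass.

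**Figure D4:**
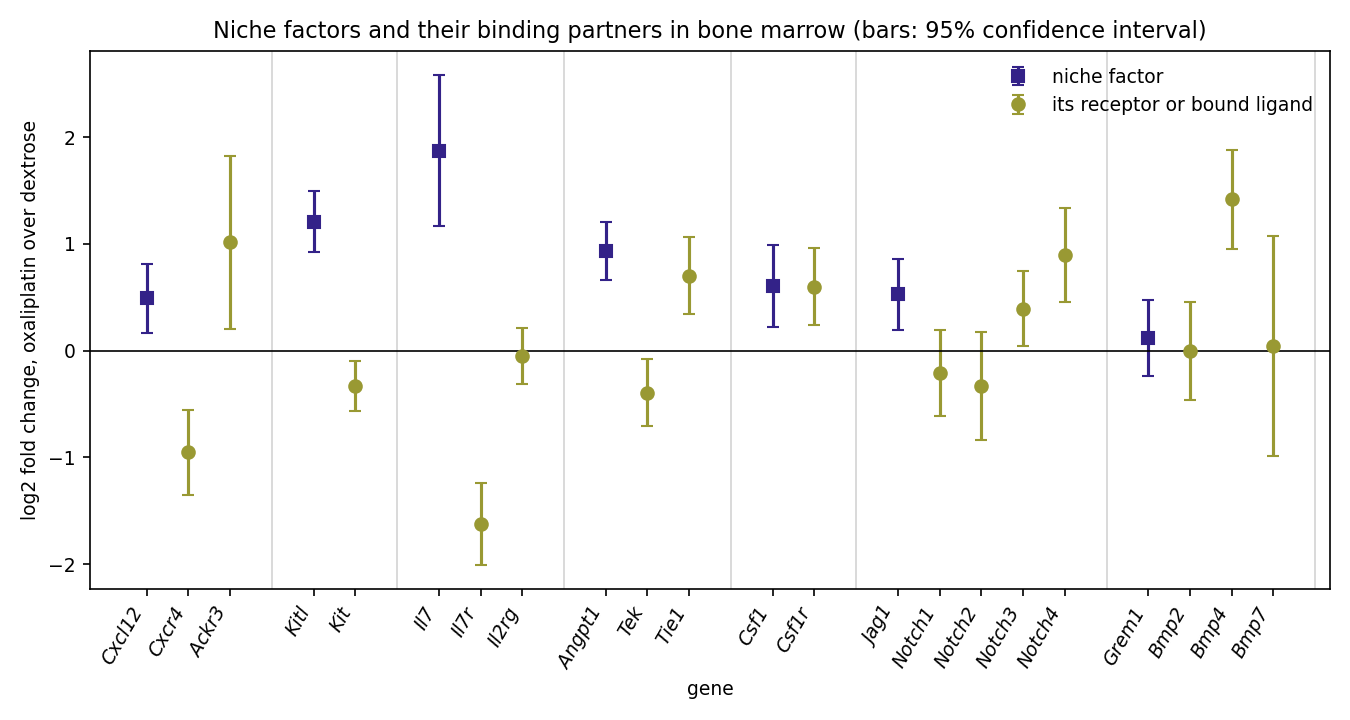
Log2 fold change with its 95% confidence interval in bone marrow for 7 niche factors (squares) and the receptors or ligands they bind (circles). Cxcr4, Il7r and Kit lie below 0 under ligands that lie above it, Csf1 and Csf1r lie together, and Lep and Lepr are not drawn.

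Close relatives of the niche factors were also examined. Of 18 such genes 15 were tested, of which 5 were called higher and 1 lower, against 23.3% of all genes called. The median log2 fold change of the relatives was 0.60. Those called higher included the bone morphogenetic protein antagonist Nog, the forkhead gene Foxc2 (1.37), the Notch ligand Jag2 (0.92) and the cytokine gene Tslp (0.87). Nog was close to the floor with dextrose, at 4 to 9 counts per library, and had 29 to 188 counts with oxaliplatin. It passed the filter on low counts only through the oxaliplatin group, so its call rests on that and no p-value is given. Ebf1, a relative of Ebf3 that B cells also express, fell by 1.01 on the log2 scale (adjusted p = 5.52e-04 in edgeR), beside the lower B cell markers given above. Dll3, Csf2 and Csf3 had too few counts to be tested.

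Per length, Cxcl12 was the most abundant factor in dextrose marrow at 345.6 ± 23.5 TPM (SD, n = 5), and its range did not overlap that of any other. Lepr (26.3 ± 2.62 TPM), Csf1 (21.7 ± 2.47) and Kitl (19.7 ± 2.30) followed, and each overlapped the next in order. Ebf3, Angpt1, Foxc1 and Grem1 lay between 12.6 and 10.2 TPM on average and overlapped in turn. Jag1 (5.69 ± 0.46 TPM) and Il7 (0.91 ± 0.33 TPM) were the least abundant, and neither overlapped its neighbours. In oxaliplatin marrow the order of mean TPM was Cxcl12, Kitl, Csf1, Angpt1, Foxc1, Lepr, Ebf3, Grem1, Jag1 and Il7, in which neighbours from Kitl to Jag1 overlapped. Lepr (23.8 ± 3.94 TPM) thus moved from the second place to the sixth, because the means of the factors that passed it rose. By TPM, which takes no TMM scaling, Lepr itself overlapped widely, at 22.1 to 28.9 with dextrose and 18.1 to 27.9 with oxaliplatin. Mean Cxcl12 was 615 TPM with oxaliplatin.

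Within the groups, the gene closest to Cxcl12 across the 10 marrow libraries was Cbr2, a carbonyl reductase, with r = 0.974 after subtraction of each group's mean, among 14649 genes ranked. Cyp4b1 (0.962), Sdc4 (0.962), Zfp36l1 (0.958) and Zbtb4 (0.958) came next. Among the factors themselves, the closest pair was Csf1 and Jag1 (r = 0.92), followed by Cxcl12 and Kitl (0.82) and Cxcl12 and Lepr (0.77). Grem1 ran against Jag1 (-0.55) and Il7 (-0.54). These coefficients describe 10 libraries that share depth and cell makeup.

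In kidney, a tissue without blood formation in the adult, a different set of the factors was called. Of the 9 tested, Ebf3, Il7 and Lepr were called higher and 0 lower, against 11.5% of the 19293 genes tested in kidney, 7.68% higher and 3.81% lower. Il7 was higher in every oxaliplatin mouse, as were 9.69% of the genes tested in kidney, at 1.12, 2.63, 1.90, 1.81 and 1.42 CPM with dextrose and 2.73, 2.66, 3.09, 3.82 and 3.63 CPM with oxaliplatin. Its log2 fold change was 0.84 ± 0.22 (SE; adjusted p = 0.0077 in edgeR).

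Lepr in kidney went the other way from marrow, at 5.30, 4.42, 8.38, 5.35 and 6.48 CPM with dextrose and 8.43, 7.91, 7.80, 13.6 and 9.96 CPM with oxaliplatin. The groups overlapped through dextrose mouse 3, and the log2 fold change was 0.68 ± 0.18 (SE; adjusted p = 0.0110 in edgeR). Ebf3 was scarce in kidney, at 0.173 to 0.523 CPM with dextrose and 0.574 to 1.19 CPM with oxaliplatin. Those ranges did not overlap, and the log2 fold change was 1.30 ± 0.37 (SE). Ebf3 was counted 4 to 13 times per library with dextrose and 16 to 34 times with oxaliplatin. Only the oxaliplatin group held the minimum count of 10 in every library. Ebf3 thus entered the test through the group where it was higher, its call rests on that, and no p-value is given.

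Csf1 (0.46, adjusted p = 0.00237 in edgeR), Jag1 (0.39, adjusted p = 0.00128) and Foxc1 (0.25, adjusted p = 0.0473) were higher by less than 1.5-fold in kidney. For Foxc1 the adjusted p missed 0.05 in 9 of 18 alternatives, DESeq2 (0.0693) and 7 fits without 1 mouse (at most 0.120) among them. Cxcl12 was lower there by the TMM-scaled test (-0.24, adjusted p = 0.0240), but by -0.10 (adjusted p = 0.320) when scaled by library total, and its mean TPM was 47.2 with dextrose and 47.9 with oxaliplatin. Kitl (0.15) and Angpt1 (0.21) did not pass the test, and Grem1, at 0 to 0.690 CPM, was not tested. Over all genes tested in kidney, 11.5% were called. In the same kidneys 6 of 12 stroma markers and 3 of 11 endothelial markers were called higher and 0 lower. The stroma sums were 2964 to 3251 CPM against 3513 to 3817 CPM. All 6 tested fibroblast markers were called higher (sums of 39.7 to 47.3 CPM against 80.0 to 121 CPM), as were 5 of 7 mural markers (76.9 to 93.4 CPM against 186 to 491 CPM). Of 9 adipocyte markers 7 were called higher and 1 lower, with overlapping sums of 308 to 540.0 CPM and 238 to 398 CPM. The part of these lists in the values of the factors was not tested.

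Among dextrose mice, mean TPM was higher in marrow than in kidney for 9 of the 10 factors. The ratio was 158 for Ebf3, which was scarce in kidney, 13.9 for Lepr and 7.32 for Cxcl12, and none is given for Grem1, which was at the floor in kidney. It was 1.28 for Il7 and 1.03 for Foxc1, whose ranges overlapped between the tissues, and 0.418 for Jag1. These levels come from tables counted separately for each tissue.

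The response of the tissues was compared by the interaction of tissue and treatment over all 20 libraries, a test that passed for 30.1% of 24321 genes at an adjusted p under 0.05. It passed for 7 of the 10 factors. The change in marrow exceeded that in kidney for Kitl by 1.11 on the log2 scale (adjusted p = 2.64e-05 in edgeR), for Foxc1 by 0.93 (adjusted p = 7.24e-04), for Cxcl12 by 0.79 (adjusted p = 7.89e-04) and for Angpt1 by 0.79 (adjusted p = 0.00512). Lepr (-1.10, adjusted p = 9.71e-04) and Ebf3 (-1.20, adjusted p = 0.0076) differed the other way. The kidney side of the Ebf3 difference rests on 4 to 34 counts per library. For Il7 the difference of 1.10 had an adjusted p of 0.0473, and it missed 0.05 in 18 of 27 alternatives, 14 of which left out 1 mouse.

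Csf1 (0.20, 95% confidence interval -0.22 to 0.61) and Jag1 (0.19, 95% confidence interval -0.17 to 0.55) did not differ between the tissues beyond their error. Grem1 (-1.28, adjusted p = 0.0866) did not pass. The labels do not say whether marrow and kidney libraries of one number came from the same mouse.

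**Figure D5:**
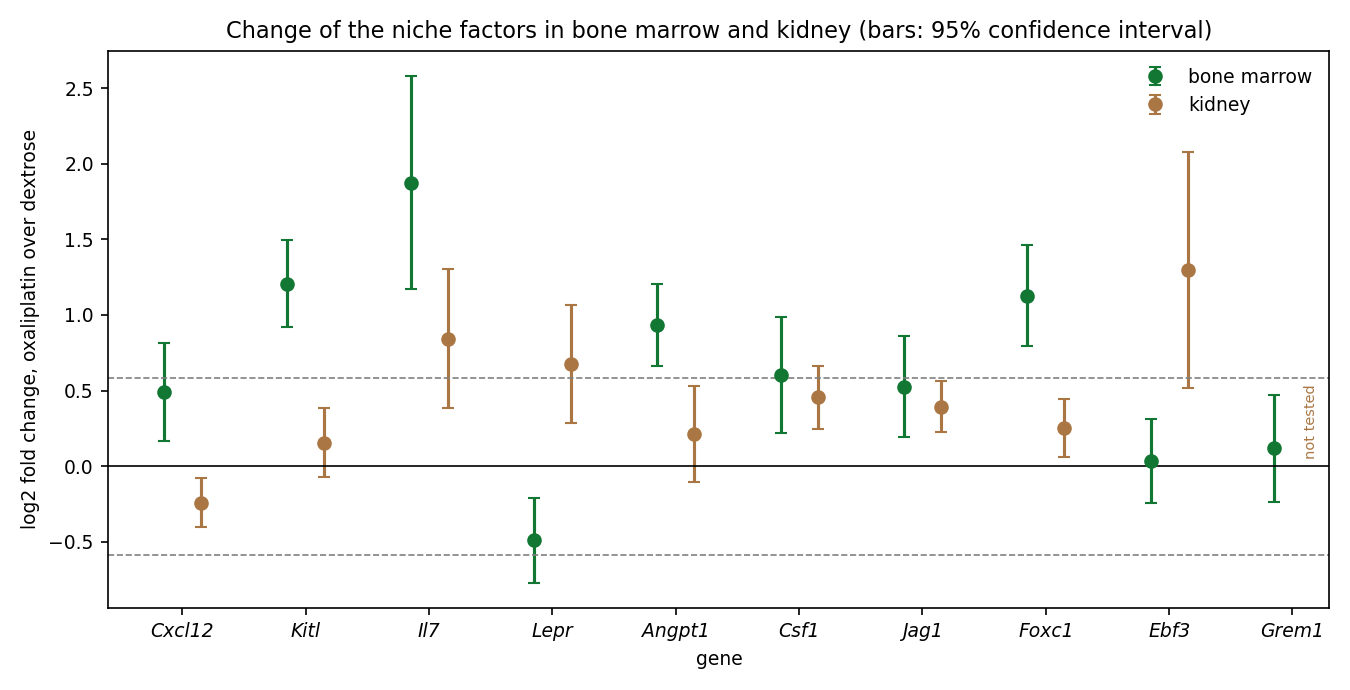
Log2 fold change with its 95% confidence interval for each niche factor in bone marrow and kidney, with dashed lines at 1.5-fold. Kitl, Angpt1, Foxc1 and, only just, Csf1 are past the line in marrow only, Lepr lies on opposite sides of 0, and Grem1 was not tested in kidney.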

How the data were processed

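RNA of 5 dextrose and 5 oxaliplatin libraries was analysed in each tissue. The authors deposited raw counts per gene, with no normalization, which they describe as unambiguous, uniquely placed reads counted in Partek Flow after STAR alignment (Ensembl release 101). The submitters' processing notes list STAR, featureCounts and Salmon instead, and the libraries are described both as SMARTer cDNA and as ribosomal RNA-depleted, random-primed cDNA. Strand use is not given in the sources used here, so overlapping antisense transcripts cannot be told apart. Repeated identifiers and 1 incomplete line were dropped.

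Genes that passed filterByExpr with a minimum count of 10 were normalized by TMM. Groups were compared by the two-sided robust quasi-likelihood method in edgeR (version 4.0.16, with limma 3.58.1 under R 4.3.3), and p-values were adjusted after Benjamini and Hochberg over all genes tested. A gene was called when its adjusted p was under 0.05 and it changed by more than 1.5-fold. A standard error is the log2 fold change divided by the square root of its F statistic. Tissues were compared by the tissue by treatment interaction. Ratios between genes used log2 CPM with a prior count of 2 and exact permutation tests. TPM used exon lengths of GENCODE mouse release 21 (GRCm38), and promoters came from RefSeq (GRCm38.p6). The steps were tested on simulated data. P-values measure the spread between these libraries. Counts of 3 were taken as the floor.

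The 10 genes and all lists were chosen with earlier results of these data known. Named genes are the 10 factors, called genes of the lists of partners, relatives and Notch targets, markers, and the 5 genes closest to Cxcl12. Some single genes of these lists are not reported here. Alternatives were DESeq2 1.42.0 and its size factors, scaling by totals, removal of hemoglobin genes, other filters and thresholds, a prior count of 0.5, the replicate number as a block, Y-linked expression as a covariate, other reference lists, and each mouse left out. The plots used matplotlib 3.10.9 in Python 3.11.15.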

Additional observations from a re-analysis of the deposited data

Results flagged for a closer look

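The change in bone marrow less the change in kidney, on the log2 scale, differed from 0 in edgeR's interaction test for 7 factors, at 0.79 for Cxcl12, 1.11 for Kitl, 1.10 for Il7, -1.10 for Lepr, 0.79 for Angpt1, 0.93 for Foxc1 and -1.20 for Ebf3. Of these, Il7 (adjusted p = 0.0473) had 18 of 27 alternatives in which the adjusted p missed 0.05. Ebf3 was counted only 4 to 34 times per library in kidney.

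Among dextrose kidneys, Kitl in library 1 (13.1 CPM) and Angpt1 in library 5 (4.66 CPM) lay apart below the other 4, with a gap of 0.751 and 0.716 of the range of their group on the log2 scale. These were 2 of 38 groups examined, and chance gives about 1.9.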

How the results depend on the processing

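The 5 calls in bone marrow became 3 with a fold change beyond 2 and 8 with no fold-change threshold, the partners 3 with a fold change beyond 2, and the genes called in marrow 3231. In kidney the 3 calls became 1 and 7, and the genes called became 941 and 5679. With 1 mouse left out, the calls among the 10 factors ranged from 4 to 7 in marrow and from 2 to 3 in kidney. The log2 fold change of Ebf3 in marrow ranged from -0.075 to 0.13 and turned sign without dextrose mouse 2 (-0.0055) and without oxaliplatin mouse 4 (-0.075). The ratio of Jag1 to Cxcl12 ranged from -0.056 to 0.11 and was below 0 in 5 of those fits.

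Against the stroma markers, the 2 factors that passed became 5 with the median over the list, where Ebf3 was lost (-0.35, adjusted p = 0.0529) and Kitl, Il7, Angpt1 and Foxc1 were gained, and 4 with the endothelial list. With 1 mouse left out the number ranged from 0 to 6. There the smallest exact p, adjusted over 10 factors, does not pass for a factor that reaches it alone (0.0794). The number was 0 without dextrose mouse 5, dextrose mouse 1 or oxaliplatin mouse 3. Lepr and Ebf3 had an adjusted p of 0.0794, 0.0529 and 0.0595 in these fits. Neither overlapped between the groups over all 10 mice, so neither overlapped in these fits. The exact p can take few values there, so these misses do not show a weaker difference. With the median, Cxcl12 (0.091), Csf1 (0.17) and Jag1 (0.11) turned to above 0. The cause was not tested.

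Same-numbered mice did not deviate together (r from -0.12 to 0.23 in marrow and from -0.15 to 0.08 in kidney), so the number was not taken as a pairing. With the replicate block 4 factors were called in marrow and 3 in kidney, and Cxcl12 in kidney had an adjusted p of 0.0572. In marrow, of 190 alternative values of single factors, 181 kept their direction and their side of an adjusted p of 0.05, 7 no longer passed it and 2 turned sign. These numbers leave the fold threshold aside, which Csf1 missed with the block (0.55) and in other fits (0.45 at the lowest). In kidney, Foxc1 missed an adjusted p of 0.05 in 9 of 18 alternatives and Cxcl12 in 7 of 18. Scaling by library total raised the median log2 fold change by 0.15 in marrow and 0.13 in kidney, and the share of calls that were higher from 49.6% to 63.4% and from 66.8% to 82.7%. The fits without the libraries richest in muscle RNA and with TMM within each tissue were added after seeing the data.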

Other observations

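In kidney several binding partners of the niche factors differed between the groups. Of 14 tested, 3 were called higher and 1 lower, against 11.5% of all genes tested. Cxcr4, the receptor of Cxcl12, was 1.46 to 2.39 CPM with dextrose and 2.76 to 4.06 CPM with oxaliplatin, a log2 fold change of 0.71 ± 0.18 (SE; adjusted p = 0.00802 in edgeR), where in marrow it was -0.95. Csf1r, the receptor of Csf1, was 70.4 to 93.6 CPM with dextrose and 32.6 to 51.6 CPM with oxaliplatin, a log2 fold change of -0.89 ± 0.11 (SE; adjusted p = 4.97e-05), where in marrow it was 0.60. The difference between the tissues was not tested for these receptors. Il34, the other ligand of Csf1r, fell from 17.7 to 28.9 CPM to 7.77 to 9.66 CPM in kidney (log2 fold change -1.41, adjusted p = 5.79e-07). Of 6 tested macrophage markers in kidney 4 were called lower and 1 higher, with sums of 39.3 to 46.2 CPM against 20.5 to 33.0 CPM, and their part in Csf1r was not tested. The Notch receptor genes Notch1 (0.70, adjusted p = 2.28e-06) and Notch3 (0.80, adjusted p = 9.90e-06) were called higher in kidney, where Jag1 was higher by less than 1.5-fold.

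Pericyte genes were among the markers that were higher in marrow, where 23.3% of all tested genes were called. Of 7 mural markers, Rgs5 (1.04), Kcnj8 (1.65) and Abcc9 (0.92), all named after their values were seen, were called higher and 0 lower, with sums of 81.4 to 96.5 CPM against 138.8 to 206.9 CPM. Acta2, the smooth muscle actin of arterioles, differed by 0.22 (adjusted p = 0.510 in edgeR). All 6 megakaryocyte markers were called higher.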
